A study of Mus musculus with 5 samples.

Results

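The library from cloned mouse embryos that received a knockdown of histone H3.3 together with H3.2 mRNA was set against the library from luciferase-treated embryos, gene by gene. These 2 libraries are 2 of the 5 in the series, and the comparison covers 13144 of 22026 gene symbols, those with a mean of at least 1 FPKM (fragments scaled to transcript length and to the library's mapped fragments) over the 5 libraries. All 5 libraries are RNA-seq of 4-cell embryos of the B6D2F1 strain made by nuclear transfer, the placing of a donor nucleus into an oocyte that has lost its own. The groups are H3.3 knockdown with H3.2 mRNA, H3.3 knockdown alone, H3.3 knockdown with H3.3 mRNA, luciferase, and untreated, with 1 library in each. The donor cell, the number of embryos pooled, and the form in which the knockdown and luciferase reagents were given are not stated in the sources used here. Both compared libraries carry SCNT in their source name, whereas the other 3 carry NT, and the files of the same 2 libraries write their numbers in another format than the other 3. No label says whether these marks stand for separate experiments. For the H3.2 mRNA library the title and the design text give H3.2 mRNA, but the treatment tag gives H3.3 mRNA instead. It is called by its title, and every result below rests on that title being right. With 1 library on each side no difference has a replicate check, and none has a p-value. In such bulk samples, fewer cells of a type and less RNA per cell cannot be told apart.

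Histone H3.3 is the replacement form of histone H3, placed in chromatin throughout the cell cycle by chaperones such as HIRA and the DAXX-ATRX pair. H3.2 is a canonical form, made in S phase and placed behind the replication fork by CAF-1. The egg supplies H3.3 to the transferred nucleus, and the series asks what this maternal H3.3 does in reprogramming. An H3.2 add-back tests whether supplying any H3 has the same outcome as supplying the H3.3 variant, and a luciferase arm stands for a treatment without a target in the embryo.

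The coding sequences show how close the variants are and where they part. H3f3a and H3f3b encode H3.3, and Hist1h3b and Hist2h3b encode H3.2. Each has 411 coding bases in the GENCODE M21 transcripts, and the encoded residue differs between both H3.3 genes and both H3.2 genes at 4 codons. The stretch below, coding bases 250 to 285, holds 3 of them, in capitals, in the region by which chaperones tell the variants apart.
H3f3a: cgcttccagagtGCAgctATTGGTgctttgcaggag
H3f3b: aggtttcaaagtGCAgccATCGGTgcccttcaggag
Hist1h3b: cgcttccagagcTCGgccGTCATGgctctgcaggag
Hist2h3b: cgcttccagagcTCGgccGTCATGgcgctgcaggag
H3f3a and H3f3b themselves differ at 95 of the 411 bases, and H3f3b and Hist1h3b at 75.

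The knockdown target was low in the H3.2 mRNA library. H3f3a stood at 129 FPKM there, against 3503 FPKM in the luciferase library, a difference of -4.76 on the scale of log2(FPKM + 1). H3f3b stood at 292 FPKM with H3.2 mRNA, against 2230 FPKM with luciferase, a difference of -2.93. Their sum with H3.2 mRNA was 7.33% of the luciferase sum. H3f3a was among the 12 lowest of the 5658 genes that were above 0 in all 5 libraries, bore no clone name and averaged at least 50 FPKM over the compared pair. The knockdown library had 128 and 535 FPKM for H3f3a and H3f3b, and the H3.3 mRNA library 95.5 and 371 FPKM, against 783 and 4484 FPKM in the untreated library. For both genes the 3 libraries labelled as knockdown lay under the luciferase and the untreated library. Both genes have near-identical pseudogene copies, and how reads were divided among the copies was not tested.

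**Figure D1:**
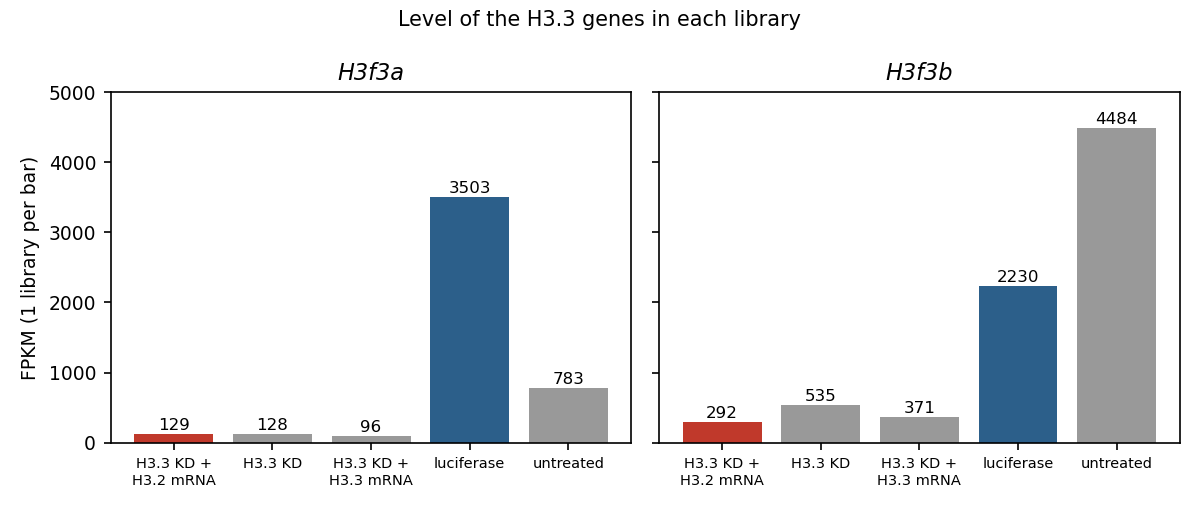
FPKM of H3f3a and H3f3b in each of the 5 libraries, 1 library per bar, with the H3.2 mRNA library in red, the luciferase library in blue and the other 3 in grey. H3f3a stood at 129 FPKM with H3.2 mRNA and 3503 FPKM with luciferase, and H3f3b at 292 and 2230 FPKM.

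The added H3.2 mRNA was not seen in the H3.2 genes. Hist1h3b, Hist1h3c and Hist1h3d, all H3.2 genes, were listed at 0 in the H3.2 mRNA library and in the luciferase library. Hist2h3b was listed at 0 with H3.2 mRNA, against 2.47 FPKM with luciferase, and Hist2h3c1 at 0 against 1.7 FPKM. Hist1h3e and Hist1h3f stood at 0.11 and 0.05 FPKM with H3.2 mRNA and at 0 with luciferase. The replication-dependent H3 gene with the highest level in the H3.2 mRNA library was Hist1h3g, an H3.1 gene, at 12.1 FPKM against 0.3 FPKM with luciferase. Hist1h3a, another H3.1 gene, stood at 2.76 FPKM with H3.2 mRNA and was listed at 0 with luciferase, and the H3.1 genes Hist1h3h and Hist1h3i were listed at 0 in both. Canonical histone transcripts lack a poly(A) tail, and whether the library method captured them or the added RNA was not tested. No value here thus shows whether H3.2 mRNA was delivered.

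Genes for H3 chaperones lay on both sides of the luciferase level, 9 of 17 above it and 8 below it, with a median difference of 0.68. Hira stood at 162 FPKM with H3.2 mRNA and 73.6 FPKM with luciferase, Daxx at 131 and 81 FPKM, and the H3-H4 chaperone Asf1a at 65.8 and 14.3 FPKM. Asf1a was the 1 chaperone of 17 that was at least 4-fold apart, and it was higher (5.88%, against 10.4% of all genes). The CAF-1 subunit genes Chaf1a and Chaf1b stood at 263 and 472 FPKM with H3.2 mRNA, against 158 and 283 FPKM with luciferase, and Atrx at 26.3 against 41.9 FPKM. Of 9 genes of other replacement variants that passed, out of 11, 2 were at least 4-fold lower (22.2%, against 9.84% of all genes) and 0 higher. These were the macroH2A genes H2afy, at 29.3 against 129 FPKM, and H2afy2, listed at 0 against 3.15 FPKM. H2afy2 would not have passed the filter without its luciferase level, so the filter set the direction of its difference. H1foo, the oocyte linker histone, stood at 180 FPKM with H3.2 mRNA and 74.8 FPKM with luciferase.

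Across all genes, the 2 libraries differed about equally in both directions. A difference of 4-fold or more, 2 on the log2 scale, is counted as higher or lower here. With H3.2 mRNA 1369 genes were higher by this measure (10.4% of those compared) and 1293 were lower (9.84%), 2662 in all (20.3%). The median difference was 0.00, and 57.1% of the genes lay within 2-fold. Of the 1369 higher genes 716 were listed at 0 in the luciferase library, and of the 1293 lower genes 755 were listed at 0 with H3.2 mRNA. An exact 0 in such files can be a failed estimate, and no fold is given against it. The count of 2662 was the smallest among the 10 pairs of libraries. The compared libraries also had the fewest listed zeros among the 13144 genes, 1382 with H3.2 mRNA and 1353 with luciferase. The other libraries had between 2054 and 2951. The part of listed zeros in the order of the pairs was not tested. The knockdown differed from the luciferase library at 3758 genes (28.6%) and the H3.3 mRNA library at 2791 (21.2%), the luciferase library differed from the untreated one at 4849 (36.9%), and these pairs share libraries with one another. The sequencing depth is unknown, and the SCNT label shared by the 2 compared libraries cannot be told apart from their treatments in such counts.

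The share of differing genes depended on level. Between 1 and 5 FPKM 45.2% of 2072 genes were at least 4-fold apart, between 20 and 100 FPKM 17.1% of 3806, between 100 and 1000 FPKM 5.38% of 4167, and at 1000 FPKM or more 1.82% of 658. At the top of the range the difference ran one way, since 12 of those 658 genes were lower with H3.2 mRNA and 0 were higher, with a median of -0.56. The H3.2 mRNA library had 441 genes at 1000 FPKM or more, against 687 in the luciferase library, and its 100 highest genes held 17.9% of its FPKM total, against 27.1%. That total was 2467002 FPKM with H3.2 mRNA and 3418875 FPKM with luciferase, and the part of these differences in the gene values was not tested.

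**Figure D2:**
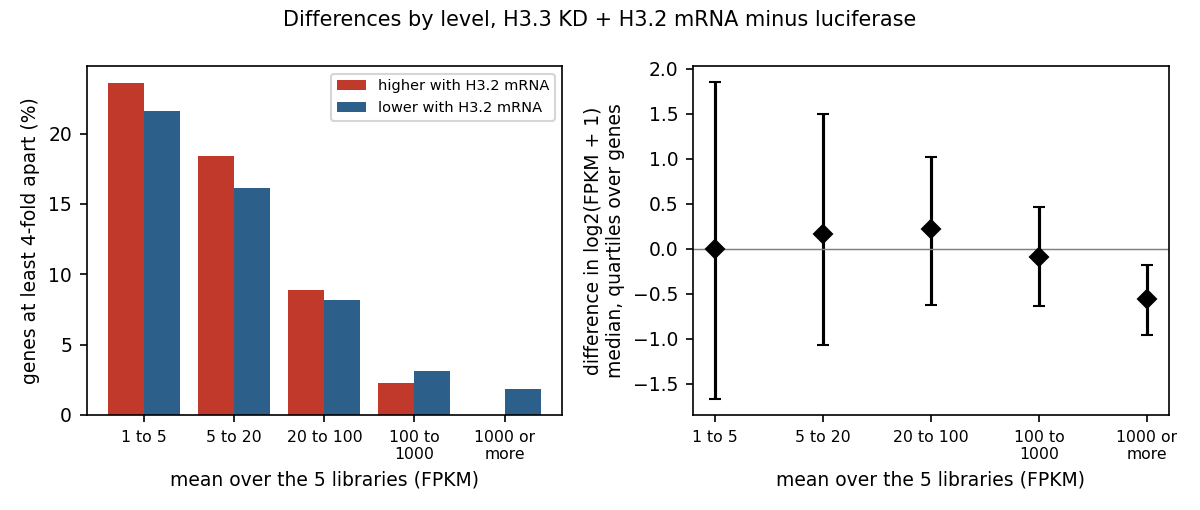
Left, percent of genes at least 4-fold higher or lower with H3.2 mRNA than with luciferase, by mean level over the 5 libraries; right, the median difference in log2(FPKM + 1) with quartiles over genes as bars. The share at least 4-fold apart was 45.2% in the lowest class and 1.82% in the highest, where the median was -0.56.

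The 12 lower genes of the highest class were H3f3b, Cyp2s1, Anxa2, Casp6, Dppa5a, Gulo, Alppl2, Bhmt, Cd9, Fam195a, Rplp2-ps1 and Gm11517, named here after their values were seen. Alppl2, an alkaline phosphatase gene of the early embryo and the highest gene of the luciferase library, stood at 9164 FPKM with H3.2 mRNA against 48698 FPKM. Cd9, which encodes the egg tetraspanin needed for sperm fusion, stood at 1014 against 4173 FPKM. Casp6, an effector caspase gene, stood at 509 against 3043 FPKM. The knockdown and H3.3 mRNA libraries had 6256 and 21523 FPKM for Alppl2, 2992 and 1961 FPKM for Cd9, and 311 and 569 FPKM for Casp6, and the luciferase library was the highest of the 5 in all 3 genes.

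Oocyte and maternal-effect genes were higher with H3.2 mRNA. Of the 63 list members that passed the filter, out of 65, 30 were at least 4-fold higher (47.6%, against 10.4% of all genes) and 2 were lower (3.17%, against 9.84%). The median difference was 1.70, against 0.00 for all genes, and it lay between 1.70 and 1.76 under 3 rescalings. The list median level was 56.4 FPKM, within the class of 20 to 100 FPKM, in which 8.85% of genes were higher. The list is read as a description of these libraries, and the members share their library.

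Among secreted egg factors, Oosp1, whose product is released by the oocyte, stood at 68.2 FPKM with H3.2 mRNA and was listed at 0 with luciferase. Bmp15, a growth factor by which the oocyte acts on its follicle, stood at 112 against 2.13 FPKM, 52.5 times as much, and its partner Gdf9 at 177 against 81.2 FPKM. Of these 3, Oosp1 alone was listed at 0 in a compared library. The zona pellucida genes, which encode the egg coat, stood at 70.4 against 14.7 FPKM for Zp1, 81.8 against 34.6 FPKM for Zp2 and 77.3 against 54 FPKM for Zp3. Zp1 alone of the 3 was at least 4-fold higher.

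Several genes of meiosis and of maternal mRNA control lay on the same side. Wee2, the oocyte kinase that holds CDK1 inactive, stood at 235 FPKM with H3.2 mRNA and 12.2 FPKM with luciferase, a difference of 4.17. Cpeb1, which binds stored mRNA and governs its polyadenylation, stood at 45.5 FPKM and was listed at 0 with luciferase. Btg4, an adaptor for maternal mRNA decay, stood at 200 against 29.2 FPKM, and Cnot6l, a deadenylase subunit gene, at 70.5 against 14 FPKM. The mitotic cyclins Ccnb1 and Ccnb2, also on the list, stood at 1101 and 419 FPKM with H3.2 mRNA and at 1235 and 690 FPKM with luciferase. Mos, the kinase of the meiotic arrest, was listed at 0 in both.

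The egg NLRP genes gave a graded picture. Nlrp4a, Nlrp4b, Nlrp4e, Nlrp9a, Nlrp9b and Nlrp9c stood between 7.51 and 55.7 FPKM with H3.2 mRNA and between 0 and 2.47 FPKM with luciferase. Nlrp5, a core of the subcortical maternal complex, stood at 110 against 23.9 FPKM. Its partners differed less or the other way, with Tle6 at 109 against 90 FPKM, Padi6 at 317 against 179 FPKM, and Ooep at 8.2 against 19.8 FPKM. The 2 list members at least 4-fold lower were Plac1l, a paralog of Oosp1, listed at 0 against 7.79 FPKM, and 2410004A20Rik, the symbol in these files for the complex member Khdc3, at 49.1 against 233 FPKM. Members of the Nlrp4, Nlrp9 and Oog families are near copies of one another, and their counting can trade reads.

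The oocyte list was lowest in the luciferase library, not highest in the H3.2 mRNA library. Its median level over the 63 genes was 70.4 FPKM with H3.2 mRNA, 37.3 FPKM in the knockdown, 38.3 FPKM with H3.3 mRNA, 14.7 FPKM with luciferase and 99.6 FPKM in untreated embryos. The luciferase library alone held the lowest value of the 5 for 35 of the 63 genes, and the untreated library the highest for 32. The H3.2 mRNA library was the highest for 18, Cpeb1 among them, which stood at no more than 4.77 FPKM in the other 4. Zar1, Btg4 and Bcl2l10 show this, at 18.4, 200 and 340 FPKM with H3.2 mRNA, 5.76, 29.2 and 59.4 FPKM with luciferase, and 639, 1390 and 2781 FPKM in untreated embryos.

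**Figure D3:**
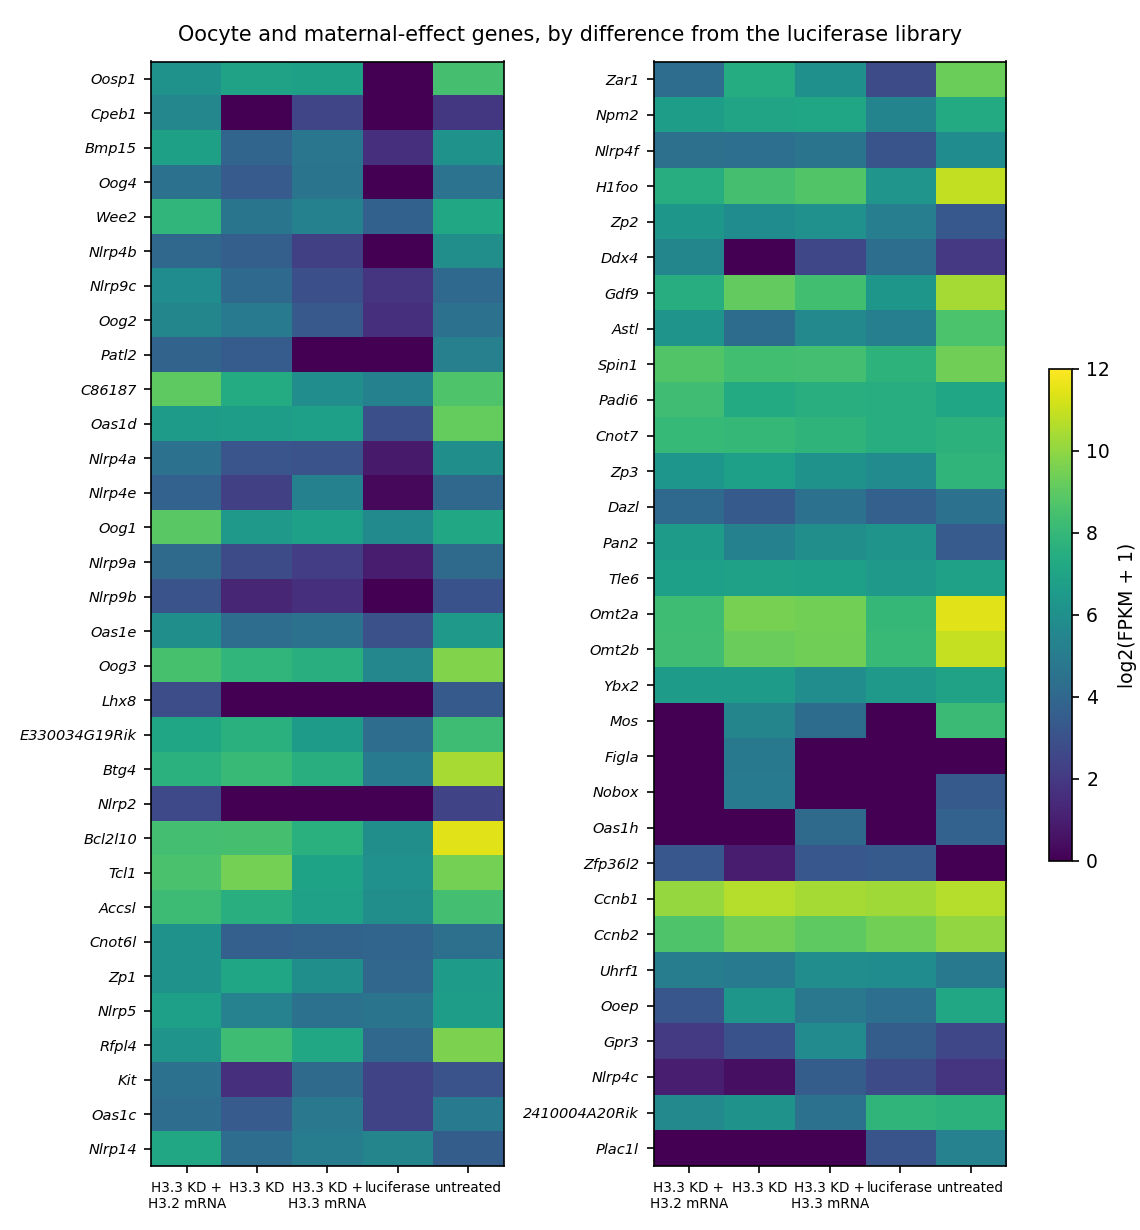
Levels, as log2(FPKM + 1), of the 63 oocyte and maternal-effect genes that passed the filter in each of the 5 libraries, ordered by the difference between the H3.2 mRNA and luciferase libraries, left block first. The luciferase library alone had the lowest value of the 5 for 35 of the 63 genes, and the first 30 rows of the left block are the genes at least 4-fold higher with H3.2 mRNA.

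The promoters of the 4 most displaced oocyte genes are shown because these genes lay together on the high side and because E-boxes, read as CANNTG, occur in egg gene promoters. Each is the 100 bases before the start site from RefSeq on GRCm38.p6, a build other than the mm9 of the files, with CANNTG in capitals.
Oosp1: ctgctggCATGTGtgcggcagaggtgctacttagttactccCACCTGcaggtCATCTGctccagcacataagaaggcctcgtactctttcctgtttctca
Cpeb1: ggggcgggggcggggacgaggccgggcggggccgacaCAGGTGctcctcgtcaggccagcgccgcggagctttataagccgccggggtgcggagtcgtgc
Bmp15: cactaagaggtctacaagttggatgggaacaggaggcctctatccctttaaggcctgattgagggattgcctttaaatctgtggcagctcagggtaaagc
Oog4: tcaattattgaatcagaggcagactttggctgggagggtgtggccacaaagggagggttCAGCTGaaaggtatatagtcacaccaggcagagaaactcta
They lie at chr19:11691052-11691151, chr7:81454759-81454858, chrX:6320725-6320824 and chr4:143450325-143450424, all on the minus strand. Oosp1 holds 3 such boxes in this stretch, Cpeb1 and Oog4 1 each, and Bmp15 0.

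Over the 250 bases before the start, on both strands, 52 of the 63 oocyte genes had a promoter in the table. CANNTG was found in 78.8% of the 52 and in 66.2% of all 32851 promoters of the table, and its form CAGGTG, counted within CANNTG too, in 44.2% against 17.2%. TATAAA was found in 17.3% against 12.4%, CCAAT in 48.1% against 33.8%, TAATTG in 11.5% against 7.17%, and GGGCGG in 30.8% against 32.7%. The median GC content was 49.2% against 52.4%. Of the 26 oocyte genes with a promoter that were at least 4-fold higher, 46.2% held CAGGTG, close to the 44.2% of the list as a whole. All 9 list promoters with TATAAA belonged to those 26 genes (34.6%), whose median GC content was 42.8%. These are letter matches and describe the list.

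Regulators of pluripotency were mostly lower with H3.2 mRNA. Of the 27 members that passed, out of 31, 7 were at least 4-fold lower (25.9%, against 9.84% of all genes) and 1 was higher, with a median of -1.01. Pou5f1, the core factor OCT4, stood at 157 FPKM with H3.2 mRNA and 849 FPKM with luciferase. Nanog stood at 0.99 against 52.1 FPKM, Tbx3, a T-box factor, at 3.09 against 120 FPKM, and Tdgf1, a NODAL co-receptor, at 3.11 against 95.2 FPKM. Prdm14 was listed at 0 against 12.9 FPKM, Tcfcp2l1 stood at 9.84 against 60.4 FPKM, and Dppa5a at 349 against 2030 FPKM. The higher member was Tcl1, a cofactor of the AKT kinase that also counts among the oocyte genes, at 372 against 65.5 FPKM.

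Other pluripotency members were closer to the luciferase level. Klf17 stood at 893 against 906 FPKM, Dppa4 at 1725 against 1654 FPKM, Zfp42 at 245 against 328 FPKM, and Utf1 at 19.6 against 20.7 FPKM. Sox2 was listed at 0 in both libraries, and Sall1 and Nr0b1 in all 5. The luciferase library had the highest of the 5 values for 11 of the 27 genes and the H3.2 mRNA library for 1. For Pou5f1 the other libraries stood at 479 FPKM in the knockdown, 391 FPKM with H3.3 mRNA and 1250 FPKM in untreated embryos, so the H3.2 mRNA library was the lowest of the 5 for that gene. The median level of the 27 genes was 64.3 FPKM with H3.2 mRNA and 120.3 FPKM with luciferase. It was 58.6 FPKM in the knockdown, 126.8 FPKM with H3.3 mRNA and 72.7 FPKM in untreated embryos. The knockdown library alone was the lowest for 10 of the 27, and the H3.2 mRNA library alone for 7.

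Genes of the trophectoderm, the first epithelium and forerunner of the placenta, were also lower with H3.2 mRNA than with luciferase. Of 18 members that passed, out of 24, 7 were at least 4-fold lower (38.9%, against 9.84% of all genes) and 1 was higher, with a median of -1.68. The luciferase library stood apart here. The median level of the 18 genes was 36 FPKM with H3.2 mRNA, 14.5 FPKM in the knockdown, 28.2 FPKM with H3.3 mRNA, 163.1 FPKM with luciferase and 54.5 FPKM in untreated embryos. The luciferase library alone was the highest of the 5 for 10 of the 18 genes, and the H3.2 mRNA library alone the lowest for 2. The keratin genes Krt8 and Krt18, whose products pair into the first filaments of the embryo, stood at 44.8 and 13.1 FPKM with H3.2 mRNA and at 836 and 435 FPKM with luciferase. Krt7 was listed at 0 against 34.5 FPKM. Dab2, an endocytic adaptor, stood at 67.4 against 482 FPKM, and the transcription factor Gata3 at 3.76 against 27.6 FPKM. Tead4, the factor that starts the lineage, stood at 154 against 528 FPKM, under 4-fold apart, as did Hand1 at 560 against 1591 FPKM. Yap1, the TEAD coactivator, stood at 302 against 213 FPKM, and the higher member was Tcfap2a at 5.29 FPKM, listed at 0 in all 4 other libraries. Tcfap2a thus passed the filter through the H3.2 mRNA library alone and had to differ. Cdx2, Eomes, Elf5 and Krt19, markers of a later stage, were listed at 0 in all 5 libraries.

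Primitive endoderm genes had the lowest median of the lists with over 10 members that passed. Of 14 that passed, out of 21, 9 were at least 4-fold lower (64.3%, against 9.84% of all genes) and 1, Amn, was higher, with a median of -2.43. Here too the luciferase library was the high one. The median level of the 14 genes was 4 FPKM with H3.2 mRNA, 5.3 FPKM in the knockdown, 33.8 FPKM with H3.3 mRNA, 60.6 FPKM with luciferase and 9.4 FPKM in untreated embryos, and the luciferase library alone was the highest of the 5 for 7 of them. Of the lower members Col4a2, Lrp2 and Runx1 would not have passed the filter without their luciferase level, nor Amn without its H3.2 mRNA level. The filter thus set the direction of these differences, which are counted in the shares above. With no filter the median over all 21 was -1.13. The lowest differences were those of Col4a2, of Lrp2, an endocytic receptor gene, and of Col4a1. Lrp2 stood at 0.65 against 68.8 FPKM and, like Runx1 at 0.47 against 7.12 FPKM, was listed at 0 in the other 3 libraries. Serpinh1, a collagen chaperone gene, was listed at 0 against 21.4 FPKM. Among basement membrane genes, Col4a1 stood at 3.68 against 141 FPKM, Col4a2 at 2.16 against 149 FPKM, Lamb1 at 94.7 against 477 FPKM, and Sparc, a matricellular glycoprotein, at 21.7 against 281 FPKM. Col4a1 and Col4a2 share a promoter region, head to head, and Col4a2 was listed at 0 in the other 3 libraries. The lineage factors Gata4 and Gata6 differed less, at 184 and 108 FPKM with H3.2 mRNA and 405 and 223 FPKM with luciferase. Sox17, Sox7, Foxa2 and Hnf4a were listed at 0 in all 5 libraries.

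Genes for cell junctions and the blastocoel were lower for 6 of 28 members that passed (21.4%, against 9.84% of all genes) and higher for 0 (10.4% of all genes), with a median of -0.62. The lower members were Dsp, a desmosome gene, the water channel gene Aqp3, Msn, a linker of membrane to actin, Pkp2, and the tight junction genes F11r and Cldn4. F11r stood at 351 against 1562 FPKM, Cldn4 at 205 against 881 FPKM, Aqp3 at 57 against 341 FPKM, and Dsp at 11.9 against 95 FPKM. E-cadherin (Cdh1) stood at 100.4 against 311 FPKM.

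**Figure D4:**
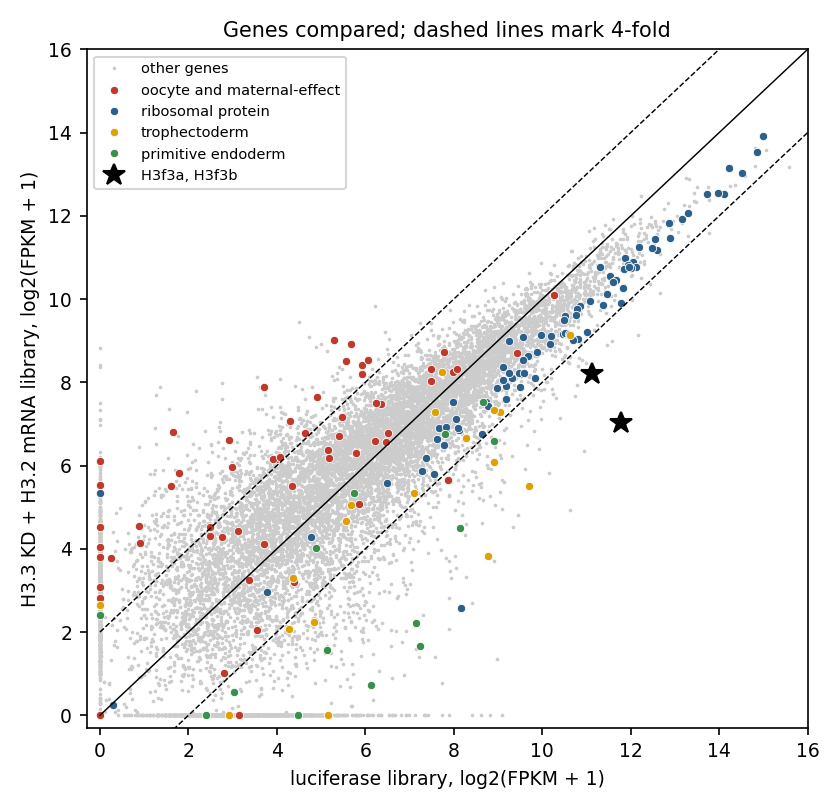
Each gene's level in the H3.2 mRNA library against its level in the luciferase library, both as log2(FPKM + 1), with the line of equality and dashed lines at 4-fold. Of the oocyte genes 30 of 63 lie above the upper dashed line, and of the primitive endoderm genes 9 of 14 lie below the lower one. Among those 9, Col4a2, Lrp2 and Runx1 passed the filter only through their luciferase level.

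Genes of signalling split between both directions. Of 41 members of the AP-1, immediate early and FGF-BMP list that passed, 8 were at least 4-fold higher (19.5%, against 10.4% of all genes) and 7 lower (17.1%, against 9.84%), with a median of 0.45. Among the lower ones, Id3 and Id1, inhibitors of helix-loop-helix factors and direct BMP targets, stood at 29.6 and 3.73 FPKM with H3.2 mRNA and at 1576 and 70.4 FPKM with luciferase. Id3 also stood at 978 FPKM in untreated embryos and at 87.8 and 227 FPKM in the knockdown and H3.3 mRNA libraries, so it was lower in the 3 knockdown-labelled libraries than in either control. Myc stood at 9.93 against 69.8 FPKM, and the FGF feedback gene Spry2 at 8.69 against 76.6 FPKM, while Spry4, of the same family, stood at 38.3 against 4.06 FPKM. Ier2, an immediate early gene, stood at 169 against 21.3 FPKM, and Fosb, Egr1, Nodal, Smad1 and Dusp4 were listed at 0 with luciferase and lay between 4.77 and 15.6 FPKM with H3.2 mRNA. Id4, of the same family as Id3 and Id1, was among the higher ones, at 13.3 against 1.23 FPKM. It was listed at 0 in the other libraries and would not have passed the filter without its H3.2 mRNA level. The filter thus set the direction of the Id4 difference. The FGF ligand gene Fgf4 stood at 151 against 61.6 FPKM.

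Cytosolic ribosomal protein genes lay a little over 2-fold lower as a body. Of 84 that passed, 83 were below the luciferase level and 1, Rpl3l, was above it. Each side had 1 gene at least 4-fold apart (1.19%, against 10.4% of all genes higher and 9.84% lower), Rpl39l lower and Rpl3l higher. The median was -1.19, and it was -0.78 with quantile normalization, which makes the value distributions of the libraries alike. Rpl8 stood at 8353 FPKM with H3.2 mRNA against 23448 FPKM with luciferase, Rplp0 at 11864 against 29543 FPKM, and Rps16 at 952 against 3490 FPKM. The H3.2 mRNA library had the lowest of the 5 values for 74 of the 84 genes. For the 44 ribosomal protein genes at 1000 FPKM or more the differences ran between -1.87 and -0.48, with a median of -1.20, and the other 614 genes of that level had a median of -0.51. Ribosomal protein transcripts are short, with a median longest transcript of 1076 bases against 3183 for all genes, and differences varied with length at some levels. Among genes of at least 50 FPKM the median was -0.61 under 1000 bases and 0.08 at 4000 bases or more. Among genes of at least 1000 FPKM that encode no ribosomal protein there was no such order, with medians of -0.61 under 1000 bases, -0.50 up to 2000, -0.50 up to 4000 and -0.68 above. The part of length and level in the ribosomal protein values was not tested. Many of these genes have pseudogene copies that can take reads.

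Other abundant machinery had smaller list medians. Respiratory chain and ATP synthase genes had a median of -0.72 (-0.44 with quantile normalization), with 72 of 79 below the luciferase level and 1 at least 4-fold either way, Cox7a1 lower and Cox4i2 higher. Cox5a stood at 833 against 2109 FPKM, and Atp5b at 7536 against 10211 FPKM. Mitochondrial ribosomal proteins (median -0.36, or -0.09 with quantile normalization, 76 genes) and splicing factors (-0.26, or -0.05, 60 genes) had 0 members at least 4-fold apart, and likewise ribosome biogenesis genes (-0.17, 62 genes) and translation factors with tRNA synthetases (-0.30, 64 genes). The last 2 medians turned to 0.27 and 0.12 with quantile normalization. Proteasome subunits had a median of -0.43 (0.00 with quantile normalization), with Psme2 higher and Psmg4 lower among 49. DNA replication genes had a median of -0.30 (0.01 with quantile normalization), with Dbf4, the activating subunit of the CDC7 kinase, higher at 559 against 130 FPKM. Mitotic genes had a median of 0.06, with Ccne2, a cyclin of S phase entry, higher at 121 against 16.5 FPKM. Cdk1 and Aurkc were lower, Cdk1 at 388 against 1588 FPKM. The median levels of these lists ran between 249.8 FPKM for mitotic genes and 1431.8 FPKM for proteasome subunits. The proteasome median lay at 1000 FPKM or more, a class with 1.82% of its genes 4-fold apart. The other medians lay between 100 and 1000 FPKM, a class with 5.38%. Without regard to level the figure was 20.3%. How far level accounts for the few such members here was not tested.

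Glucose metabolism genes were lower for 8 of 48 members that passed (16.7%, against 9.84% of all genes) and higher for 2, with a median of -0.58 (-0.27 with quantile normalization). The glucose transporter genes Slc2a1 and Slc2a3 stood at 40.7 and 37.7 FPKM with H3.2 mRNA and at 342 and 449 FPKM with luciferase. Hexokinase 2 (Hk2) stood at 3.4 against 74.9 FPKM, the phosphofructokinase genes Pfkl and Pfkm at 40.9 and 3.62 against 177 and 29.8 FPKM, and mitochondrial isocitrate dehydrogenase (Idh2) at 230 against 1186 FPKM. Aldoc and Eno2 were lower as well. For Slc2a1, Slc2a3, Hk2, Pfkl, Idh2 and Eno2 the luciferase library was the highest of all libraries, but for Pfkm and Aldoc the knockdown library was. Slc2a3 stood at 63.3 FPKM in untreated embryos and 65 FPKM in the knockdown, and Idh2 at 33.9 and 378 FPKM. The higher ones were Fh1, the fumarase gene, at 218 against 32 FPKM, and Pdk1, which restrains pyruvate dehydrogenase, at 27.3 against 4.64 FPKM. Pyruvate kinase (Pkm2) stood at 759 against 1171 FPKM, and Ldha at 509 against 508 FPKM.

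Few genes of histone-modifying enzymes were 4-fold apart. The shares were 1.89% each way for histone methylation and 3.03% each way for histone acetylation, against 10.4% higher and 9.84% lower of all genes. The list median levels were 90.6 and 118.8 FPKM. The histone methylation median lies in the class of 20 to 100 FPKM, in which 17.1% of all genes were 4-fold apart. The histone acetylation median lies in the class of 100 to 1000 FPKM, in which 5.38% were. The part of level in the few calls of these lists was not tested. Of 53 histone methylation genes that passed, the Polycomb gene Bmi1 was higher, at 317 against 43.3 FPKM, and the Polycomb gene Cbx7 lower, at 12.7 against 225 FPKM, with a median of -0.13. Of 33 histone acetylation genes, the deacetylase gene Hdac9 was higher, at 7.03 FPKM against a listed 0, and Hdac11 lower, listed at 0 against 8.05 FPKM, with a median of 0.13. Both were listed at 0 in the other 4 libraries, passed the filter through that 1 library, and so had to differ. Of 20 genes of DNA methylation and demethylation, 4 lay at least 4-fold above the luciferase level (20%, against 10.4% of all genes) and 0 below it by as much, with a median of 0.55. Among the higher ones were Mbd1, which binds methylated DNA, at 103 against 18.4 FPKM, Zfp57, a zinc finger protein that keeps imprints, at 84.6 against 15.4 FPKM, and Uhrf2 at 36.4 against 5.13 FPKM. Dnmt1 stood at 240.5 against 148 FPKM, and Dnmt3l at 122 against 407 FPKM.

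Imprinted genes had a median of -0.19, with 5 of 34 at least 4-fold lower (14.7%, against 9.84% of all genes) and 2 higher (5.88%, against 10.4%), shares not far from those of all genes. Plagl1, a zinc finger gene expressed from the paternal allele, stood at 0.6 against 49.2 FPKM, Nnat at 16.6 against 108 FPKM, and Slc38a4 was listed at 0 against 24.7 FPKM. Ddc and Gatm were the other lower ones, and Atp10a and Mkrn3 the higher ones. Ddc, Gatm and Mkrn3 were listed at 0 in 4 libraries each, so they passed the filter through the 1 library that held them and had to differ. Plagl1 would not have passed without its luciferase level, nor Atp10a without its H3.2 mRNA level. The filter thus set the direction of their differences. Genome activation genes of the cleavage embryo had a median of 0.22, with 4 of 26 higher (15.4%, against 10.4% of all genes) and 1 lower (3.85%, against 9.84%). Zfp352 stood at 118 against 1.37 FPKM, Arg2 at 918 against 73.9 FPKM, and the deubiquitinase genes Dub2a and Usp17l5 at 164 and 237 FPKM against 1.95 and 11.4 FPKM. Zscan4d, of the cluster that marks the late 2-cell stage, was the lower member, listed at 0 against 6.59 FPKM.

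Stress, death and defence genes had list medians near that of all genes. The median was 0.01 over 49 genes of the heat shock and unfolded protein responses (0.21 with quantile normalization). Atf5 and Chac1 were at least 4-fold higher (4.08%, against 10.4% of all genes) and Cryab, Hspb8 and Bag3 lower (6.12%, against 9.84%). Cryab, a small heat shock protein gene, was listed at 0 with H3.2 mRNA against 238 FPKM, the lowest difference of all named genes at -7.90. Atf5, a stress-response factor, stood at 137 against 21.6 FPKM. Among 35 p53 targets and BCL2 family genes (median -0.14), 2 were at least 4-fold higher (5.71%), Bcl2 and Casp9, and 4 lower (11.4%), Ccng2, Perp and Bak1 among them. Ccng2, an atypical cyclin, stood at 9.05 against 307 FPKM, and Perp, a desmosome and p53 target gene, at 10.7 against 265 FPKM. Interferon and antigen presentation genes (median -0.04, 25 genes) had 3 on each side (12% each way), with Isg15, Ddx58 and Tap2 higher, and Ifitm1, Ifitm3 and Usp18 lower. In this paragraph Chac1 and Bcl2 passed the filter through the H3.2 mRNA library alone, and Hspb8 and Usp18 through the luciferase library alone. These genes thus had to differ.

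**Figure D5:**
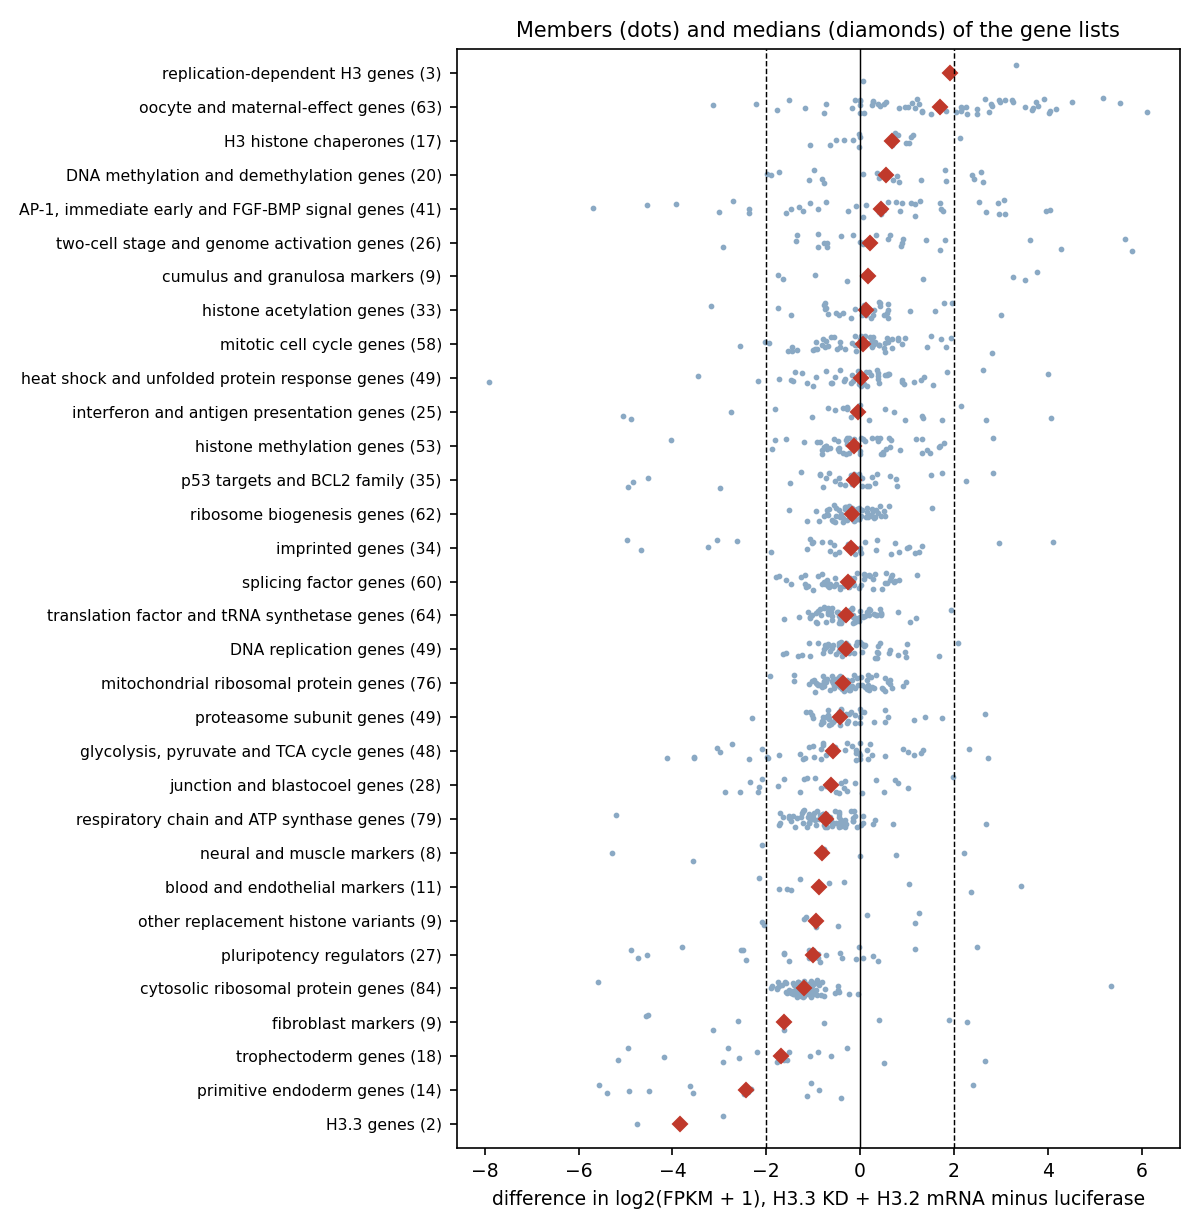
Difference in log2(FPKM + 1), H3.2 mRNA minus luciferase, for the members of each list that passed the filter (dots) and the list median (diamond), with dashed lines at 4-fold and the number of members in brackets. Medians run between -3.84 for the 2 H3.3 genes and 1.91 for the 3 replication-dependent H3 genes, and the oocyte list has 1.70 over 63 genes.

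Markers of other cell types were examined in the same pair, since donor or follicle cells could carry over. Of 27 fibroblast markers 14, among them Col1a1, Col3a1, Dcn and Pdgfrb, were listed at 0 in all 5 libraries, and the list summed to 59.8 FPKM with H3.2 mRNA and 101 FPKM with luciferase. Timp2, Vim, Acta2 and Twist1 were at least 4-fold lower, none over 22.8 FPKM with luciferase, and Tagln was higher at 5.99 against 0.44 FPKM. Of 23 cumulus and granulosa markers 13 were listed at 0 in all 5, Fshr, Amh, Has2 and Nr5a1 included. That list summed to 1146 against 1594 FPKM, most of it Gja1 and Amhr2, and Ptgs2, Tnfaip6 and Star were higher at 12.7, 10.4 and 8.59 FPKM against listed zeros. Of 25 blood and endothelial markers 13 were listed at 0 in all 5, Ptprc and Cdh5 included, with sums of 1126 against 1921 FPKM led by Gata1, and Cd68 and Cd4 were higher and Pecam1 lower. Neural and muscle markers summed to 139.5 against 148.5 FPKM, with Snap25 higher and Pax6, Syp and Acta1 lower. Of 9 fibroblast markers that passed the filter, 4 were at least 4-fold lower (44.4%) and 1 was higher (11.1%). Of 9 cumulus and granulosa markers, 3 were higher (33.3%) and 0 lower. Of 11 blood and endothelial markers, 2 were higher (18.2%) and 1 lower (9.09%). Of 8 neural and muscle markers, 1 was higher (12.5%) and 3 lower (37.5%). Of all genes 10.4% were higher and 9.84% lower. Timp2, Twist1, Acta2 and Pax6 passed the filter through the luciferase library alone, and Tagln and Star through the H3.2 mRNA library alone. These genes thus had to differ in the direction given. The median levels of these marker lists lay between 4.4 and 15.2 FPKM. Of all genes between 1 and 5 FPKM 45.2% were 4-fold apart, and between 5 and 20 FPKM 34.4%. The part of carried-over cells in the other lists was not tested.

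Single genes were then ranked without regard to lists. Among genes above 0 in all 5 libraries with at least 50 FPKM over the pair, 125 of 5658 were at least 4-fold higher with H3.2 mRNA and 155 lower. The highest was Zfp352, followed by Bfsp1, a lens filament gene, at 252 against 5.77 FPKM, and Bmp15. Jak2, the cytokine receptor kinase, stood at 545 FPKM with H3.2 mRNA and 25.3 FPKM with luciferase, 21.6 times as much, and between 39.1 and 74.3 FPKM in the other 3 libraries, so the H3.2 mRNA library was the highest of the 5. Ccdc6 did so too, at 459 FPKM against 28.7 FPKM and 34.5 to 81 FPKM elsewhere, as did Iqca at 207 FPKM against 12.4 FPKM and at most 31.9 FPKM elsewhere, and Unc13c, a synaptic priming gene, at 107 FPKM against 2.13 FPKM and at most 18.9 FPKM elsewhere. Rnf215, Rab12, Wee2, Uts2r and Fundc1, a mitophagy receptor gene, complete the 12 highest. Fundc1 stood at 481 against 30.9 FPKM, and at 187 to 404 FPKM in the other 3 libraries, so here the luciferase library was the low one.

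The 12 lowest of the same ranking were led by Nme3, a nucleoside diphosphate kinase gene, at 0.71 FPKM with H3.2 mRNA against 211 FPKM. Nme3 also stood at 0.36 FPKM with H3.3 mRNA and 0.64 FPKM in untreated embryos but at 230 FPKM in the knockdown, so it was high in 2 of the 5 libraries. Ckmt1, a mitochondrial creatine kinase gene, stood at 3.24 against 238 FPKM and at 109 to 129 FPKM in the other 3 libraries, so the H3.2 mRNA library was the low one. Stard10, a lipid transfer protein gene, stood at 12 against 479 FPKM and at most 80.4 FPKM elsewhere, and H2-Q9, a class I antigen gene, at 2.38 against 112 FPKM and at most 29.4 FPKM elsewhere, so in these the luciferase library was the high one. Smpdl3a, Id3, Rpl39l, Pbld2, Ccng2, Tbx3, Rnd1 and H3f3a complete the 12.

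Without the demand for a value above 0, listed zeros filled the ranking. The 10 highest differences, Ankrd6, Rab19, Oosp1, Tnnc2, Fam165b, Lxn, Fbxw15, Fsd1, Antxr2 and Tmprss11a, were all listed at 0 with luciferase and lay between 58.6 and 79 FPKM with H3.2 mRNA. Of the 10 lowest, Cryab, Slc6a13, Fgfbp1, Osta, Tex12, Pla2g7, Nppb, Ccdc68 and Col9a2 were listed at 0 with H3.2 mRNA and lay between 80.5 and 238 FPKM with luciferase, and Nme3 was the tenth. Slc6a13, a GABA transporter gene, Osta, a bile acid transporter subunit gene, and Nppb, a natriuretic peptide gene, were listed at 0 in all libraries but the luciferase one.

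The differing genes were spread over the genome. Over 20 chromosomes with at least 100 genes compared, the share at least 4-fold higher ran between 7.69% and 14.9%, the share lower between 5.78% and 14.2%, and the median difference between -0.19 and 0.10.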

How the data were processed

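The authors aligned single reads of 51 bases with TopHat and estimated FPKM with Cufflinks on mm9, per the submitters' processing notes, without tool versions. The libraries were Illumina TruSeq from total RNA, per the labels' protocols. Each deposited FPKM file lists 22026 symbols. FPKM is relative to a library's total, so a change in abundant transcripts shifts all others, and depth is unknown, so no interval or floor is given.

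Differences were taken on log2(FPKM + 1), H3.2 mRNA minus luciferase, which understates changes of low genes, over genes averaging 1 FPKM or more in the 5 libraries, and counted at 4-fold (Python 3.11.15, pandas 2.3.3). The call rule was tested on simulated data. The members and the 32 gene lists were chosen with earlier results of these data known. Named genes were the H3 genes, the 10 highest and 10 lowest, the 12 highest and 12 lowest above 0 everywhere averaging 50 FPKM or more over the pair, and list members at least 4-fold apart or largest in difference; clone names were left out of the rankings. A few genes within this rule are left out of the text. Other members are given as examples, chosen after their values were seen. Of 1310 list entries 1306 matched a symbol. Transcript lengths came from GENCODE M21 for 98.9% of genes and chromosomes from RefSeq for 99.3%. Alternatives were other pseudocounts, rescalings, filters and folds.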

Additional observations from a re-analysis of the deposited data

How the results depend on the processing

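The counts of 1369 higher and 1293 lower genes followed the thresholds. They became 253 and 343 with a pseudocount of 10, 880 and 845 at a mean of at least 5 FPKM, 199 and 251 at 50 FPKM, 410 and 291 over genes above 0 in all 5 libraries, 2939 and 2698 at 2-fold, and 653 and 700 at 8-fold. With a pseudocount of 0.1, with upper-quartile, median-ratio and quantile rescaling, with no filter, and with the filter on the compared pair alone, which was added after the data were seen, they stayed within 1.5 times of the reported counts. The primitive endoderm median of -2.43 was -3.67 with a pseudocount of 0.1, -1.37 with 10, -1.13 with no filter and -1.13 over genes above 0 in all 5 libraries. The oocyte median of 1.70 was 1.03 with a pseudocount of 10, and the ribosomal protein median of -1.19 was -0.78 with quantile normalization. No list median of 0.5 or more in size changed sign in the alternatives run. Of 188 genes ranked or listed at 4-fold or more, 87 fell under 4-fold with a pseudocount of 10, 15 with quantile normalization and 1 with upper-quartile scaling, and 0 changed direction. No paired analysis was possible because each group has 1 library. Unknown depth limits the genes of low level, and listed zeros stood behind 716 of the higher and 755 of the lower genes.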
